A study of Homo sapiens with 36 samples.

Results

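Chromatin at 10 genes of the epithelial-mesenchymal transition (EMT) was compared between A549 and BEAS-2B (B2B) cells. The genes were CDH1, EPCAM, CDH2, VIM, FN1, ZEB1, ZEB2, SNAI1, SNAI2 and TWIST1, out of 20033 protein-coding genes in GENCODE release 44. Every ChIP-seq peak within 3 kb of any annotated start site of these genes was taken from 16 peak lists, which gave 221 of 475211 peaks. Peaks of the Jun family within 100 kb of a start site were added, which gave 212 of 135516 Jun-family peaks. The rule names the genes by their function and uses no measured value, but the genes were proposed with earlier results of these data known.

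A549 is a lung adenocarcinoma cell line, and B2B is an immortalized, non-cancerous bronchial epithelial line. Both were grown untreated in the same serum-containing medium, and ChIP-seq was carried out in 36 samples that fall into 18 groups of 2 replicates. In both lines the antibodies were against H3K4me3 (a mark of active promoters), RNA polymerase II (pol II), H3K27ac (a mark of active promoters and enhancers), the Mediator subunit Med1 and the AP-1 subunits JunB, Jun and JunD, while the insulator protein CTCF and the cohesin subunit Rad21 were profiled in B2B. The authors pooled the 2 replicates of each group before calling peaks, so each target has 1 list per line, no replicate error can be given and no difference between the lines was tested. Each condition is 1 cell line, and a difference between the lists cannot be told apart from a difference between these particular lines.

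In EMT, epithelial cells lose cell-to-cell adhesion and gain features of mesenchymal cells. CDH1 (E-cadherin) and EPCAM hold epithelial cells together, whereas CDH2 (N-cadherin), the intermediate filament protein vimentin (VIM) and the matrix protein fibronectin (FN1) mark the mesenchymal state. ZEB1, ZEB2, SNAI1 and SNAI2 are zinc-finger repressors that bind E-box sequences in the promoters of epithelial genes such as CDH1, and TWIST1 is a basic helix-loop-helix factor that acts alongside them. AP-1 is a dimer of Jun and Fos family proteins that binds the motif TGAGTCA, which on the opposite strand reads TGACTCA, at promoters and enhancers.

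The sequences at the centre of 6 Jun-family regions show the AP-1 motif under a summit. They were chosen among regions that hold the motif, which was present in 17 of 28 regions called in both lines, 15 of 42 in A549 alone and 20 of 47 in B2B alone, and the strongest regions of CDH2, SNAI1 and TWIST1 lacked it. Each window is 61 bases of the plus strand of hg38 around the strongest summit, with the AP-1 motif in capitals, and all lie outside annotated UTRs. The FN1 and ZEB2 windows and the ZEB1 window are the strongest Jun-family regions of those genes and were called in both lines. The VIM window was called in both lines, the EPCAM window in A549 alone and the CDH2 window in B2B alone, and in each of these 3 regions all 3 Jun proteins were called in 1 line.
FN1, intron, chr2:215411044-215411104: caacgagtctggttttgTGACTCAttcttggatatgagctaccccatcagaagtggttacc
ZEB2, between genes, chr2:144358103-144358163: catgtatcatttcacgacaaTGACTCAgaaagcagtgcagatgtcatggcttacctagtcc
ZEB1, intron of LINC02664, chr10:31243057-31243117: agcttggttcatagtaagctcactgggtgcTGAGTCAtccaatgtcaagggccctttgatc
VIM, exon of the lncRNA VIM-AS1, chr10:17216339-17216399: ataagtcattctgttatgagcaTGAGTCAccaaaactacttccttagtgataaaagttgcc
EPCAM, intron of the lncRNA EPCAM-DT, chr2:47313223-47313283: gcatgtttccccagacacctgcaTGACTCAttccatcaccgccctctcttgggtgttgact
CDH2, intron, chr18:28115272-28115332: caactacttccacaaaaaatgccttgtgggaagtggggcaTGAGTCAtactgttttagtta

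Fold enrichment is the deposited ratio of the reads piled up at a summit to the local background of the peak caller, and it depends on the background of its own list. Strength is also given as a percentile, the share of peaks in the same list with a lower fold enrichment. The percentile ranks the same ratio, so it too depends on the local background under each peak. The lists held 8563 to 61225 peaks, and the median pileup at a summit ran from 19 to 107 reads. This median was 58 in A549 and 107 in B2B for H3K4me3, 24 and 56 for pol II and 37 and 62 for H3K27ac. The local background at percentile 1 of each list was closer, at 2.43 reads in A549 and 2.48 in B2B for H3K4me3. It was 1.65 and 1.67 for pol II and 1.25 and 1.44 for H3K27ac. Whether reads at a summit are on the same scale in both lines was not tested. Of the 16 lists 4 ended early, so the A549 H3K27ac list and both Med1 lists did not reach CDH1, CDH2 and SNAI1, and the A549 pol II list did not reach SNAI1. The local background under the members' H3K4me3 peaks, relative to the lowest level of the list (its percentile 1), had a median of 1.44 in A549 and 13.1 in B2B. For H3K27ac these medians were 2.46 and 13.2, and for pol II 2.0 and 5.52. Over whole lists the medians were 1.36 and 11.2 for H3K4me3, 1.81 and 7.98 for H3K27ac and 1.43 and 5.56 for pol II. For these 3 marks the higher local background of B2B was thus not particular to the 10 genes. For JunB and Jun in B2B the medians of the members' 4 and 11 peaks near starts were 3.20 and 3.17, against 1.15 over each whole list. The whole lists are not limited to peaks near starts, so this is not read as particular to the 10 genes. Within a list the background also varied, from 1.17 to 28.4 times the low level under the members' pol II peaks in B2B. The part of the local background in the lower B2B fold enrichments and percentiles was not tested.

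**Figure D1:**
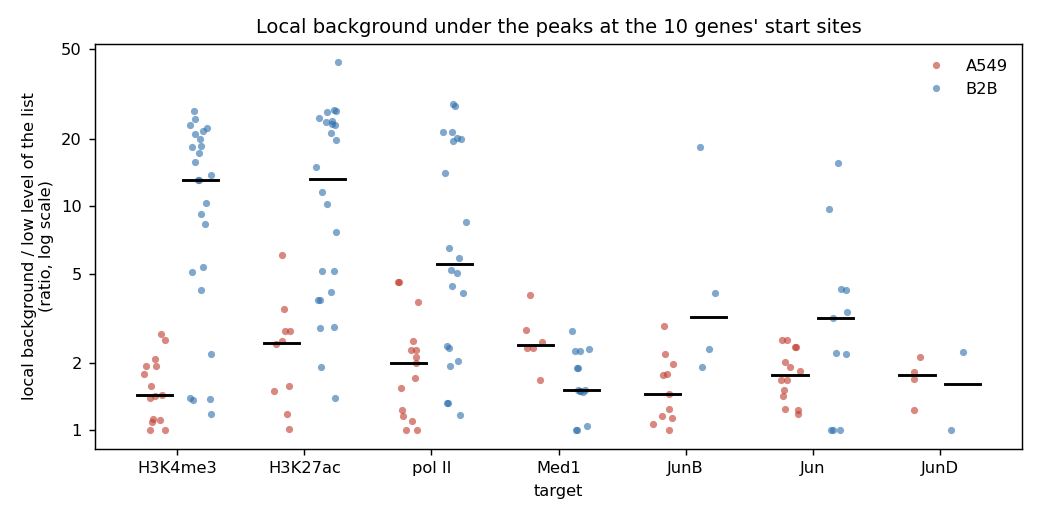
Local background under each peak at the start sites of the 10 genes, as a ratio to the low level of its list (log scale), by target and cell line, with black lines at the medians. H3K4me3, H3K27ac and pol II peaks of B2B sit on a background of 13.1, 13.2 and 5.52 times the low level at the median, against 1.44, 2.46 and 2.0 in A549.

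All 10 genes carried an H3K4me3 peak within 3 kb of a start site in both lines, against 73.7% of protein-coding genes in A549 and 62.7% in B2B. No member was called in A549 alone (12.9% of all genes) or in B2B alone (1.87%). H3K4me3 peaks covered a median of 3.55 kb per member in A549 and 2.88 kb in B2B, and over all protein-coding genes, with genes lacking a peak counted as 0, the medians were 1.98 and 0.975 kb. The members have 1 to 46 annotated start sites each and windows of 6.0 to 57.6 kb, and a protein-coding gene has a median of 5 start sites and a window of 12.1 kb. The window of 6 members was larger than this median, which gave a peak more sequence to fall in.

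Pol II was called at 8 of 9 members in A549 (69.6% of genes) and at 8 of 10 in B2B (50.9%). ZEB1 and TWIST1 had pol II in A549 alone (19.5%), and SNAI2 had it in B2B alone (1.84%). H3K27ac was called at 6 of 7 members in A549 (73.5%) and at 10 of 10 in B2B (64.9%), with none of the 7 members that both lists cover in A549 alone (11.2%) and SNAI2 in B2B alone (2.04%). Med1 was called at 3 of 7 members in A549 (54.7%) and at 6 of 7 in B2B (61.1%). EPCAM had Med1 in A549 alone (3.86%), whereas FN1, ZEB2, SNAI2 and TWIST1 had it in B2B alone (10.3%). SNAI2 was thus the single member at which pol II, H3K27ac and Med1 were each called in B2B and not in A549.

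JunB was called at 6 of 10 members in A549 (31.1%) and at 4 of 10 in B2B (5.28%). Jun was called at 6 of 10 members in each line, against 38.2% of genes in A549 and 25.4% in B2B, and JunD at 3 of 10 in A549 (17.8%) and 2 of 10 in B2B (3.21%). In A549 alone, JunB was called at EPCAM, ZEB1 and ZEB2 (26.7%), Jun at EPCAM and ZEB1 (19.3%) and JunD at EPCAM, VIM and SNAI1 (16.2%). In B2B alone, JunB was called at SNAI2 (0.953%), Jun at SNAI2 and TWIST1 (6.50%) and JunD at CDH1 and FN1 (1.57%). EPCAM had all 3 proteins in A549 and none in B2B, and CDH2 had none of them within 3 kb of a start in either line. In B2B, CTCF was called at 7 of 10 members (50.1%) and Rad21 at 9 of 10 (67.9%), with EPCAM the member without Rad21.

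**Figure D2:**
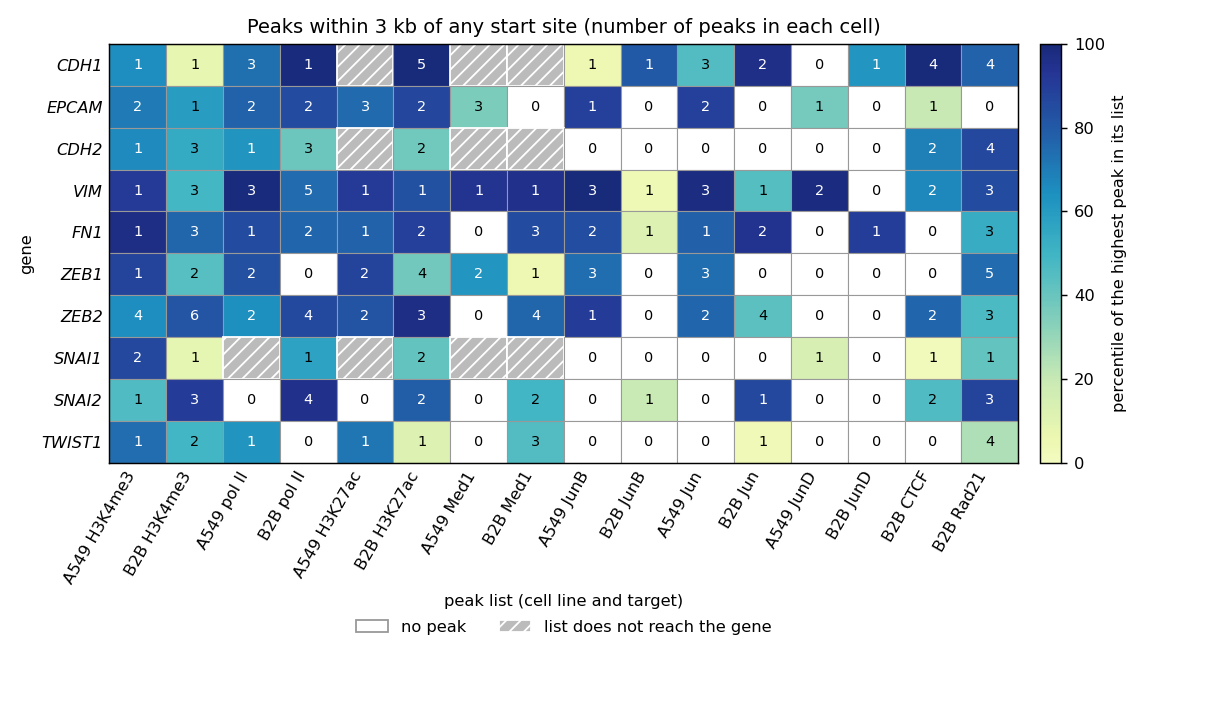
Number of peaks within 3 kb of any start site for each gene (rows) and peak list (columns), with the colour giving the percentile of the highest peak in its own list, white for no peak and hatching where the list ends before the gene. Every gene has H3K4me3 in both lines, EPCAM has Jun-family peaks in A549 and none in B2B, and SNAI2 shows the opposite for pol II, H3K27ac, Med1, JunB and Jun.

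Among the epithelial genes, EPCAM had peaks at its principal start in A549 and not in B2B. The principal start is that of the transcript that GENCODE marks as canonical (chr2:47369311). In A549 it carried an H3K4me3 peak of 29.9-fold (percentile 70.7), pol II of 24.6-fold (77.9), H3K27ac of 41.2-fold (75.5) and Med1 of 5.66-fold (29.3). The Jun-family region there, chr2:47368960-47369427, over an EPCAM exon with its summit 0.120 kb upstream of the start, had JunB at 15.9-fold (percentile 89.3), Jun at 26.8-fold (89.1) and JunD at 5.06-fold (37.1). In B2B no list, CTCF and Rad21 included, held a peak within 3 kb of this start. It was the strongest region over all members that was called in A549 alone, by the sum of fold enrichments (47.8).

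The marks of EPCAM in B2B lay at the farthest upstream start, 24.2 kb before the principal one. There H3K4me3 reached 20.5-fold in A549 and 3.89-fold in B2B, at percentiles 58.3 and 59.2 of their lists, and pol II reached 21.3-fold (75.6) and 8.87-fold (85.3). H3K27ac reached 32.1-fold (71.5) in A549 and 9.35-fold (86.8) in B2B. For these 3 marks the ranks at the upstream start were alike or higher in B2B, while at the principal start A549 alone had peaks. Med1 (4.26-fold and 5.89-fold) and Jun (4.84-fold, percentile 4.94) were called at the upstream start in A549 and not in B2B. Around EPCAM 16 Jun-family regions lay within 100 kb, of which 8 were called in A549 alone, 5 in both lines and 3 in B2B alone. The printed EPCAM window lies in one of the 8, 56.1 kb upstream of the principal start, with JunB at 9.72-fold, Jun at 11.9-fold and JunD at 4.13-fold in A549.

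CDH1 had H3K4me3 at its principal start (chr16:68737292) in both lines, but the peaks differed in extent. The A549 peak spanned 2011 bp at 25.8-fold (percentile 64.9), and the B2B peak spanned 260 bp at 1.97-fold (percentile 7.81). The summits held 156 reads in A549 and 85 in B2B, against list medians of 58 and 107. The local background was 2.09 times the low level of the list in A549 and 17.3 times in B2B. Pol II was called at this start in A549 alone, with 3 peaks of 7.24-fold to 18.6-fold. In A549 weak JunB (4.01-fold, percentile 4.78) and Jun (8.64-fold, percentile 45.4) peaks lay 3.08 and 3.03 kb downstream. In B2B the start had H3K27ac at 2.08-fold (percentile 0.573) and 2 Rad21 peaks of 5.82-fold and 7.57-fold.

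In B2B the signal at CDH1 lay far inside the gene. At an annotated start 86.0 kb downstream of the principal one, pol II reached 32.1-fold (percentile 99.4) and H3K27ac peaks to either side reached 17.3-fold (98.7) and 23.7-fold (99.7). The region chr16:68823429-68823946, which overlaps a CDH1 exon, had Jun at 36.6-fold (percentile 96.6), JunB at 9.49-fold (80.4) and JunD at 5.99-fold (61.9), and a CTCF peak of 12.7-fold (64.5) and a Rad21 peak of 4.56-fold (21.8) overlapped it. It was the strongest region over all members that was called in B2B alone, with a summed fold enrichment of 52.0. A549 had no pol II, H3K4me3 or Jun-family peak there, and the A549 H3K27ac list ends before CDH1. A further CTCF peak of 64.8-fold (percentile 99.6), with Rad21 of 11-fold (77.9), lay between the principal start and this element, 63.2 kb downstream of the start.

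**Figure D3:**
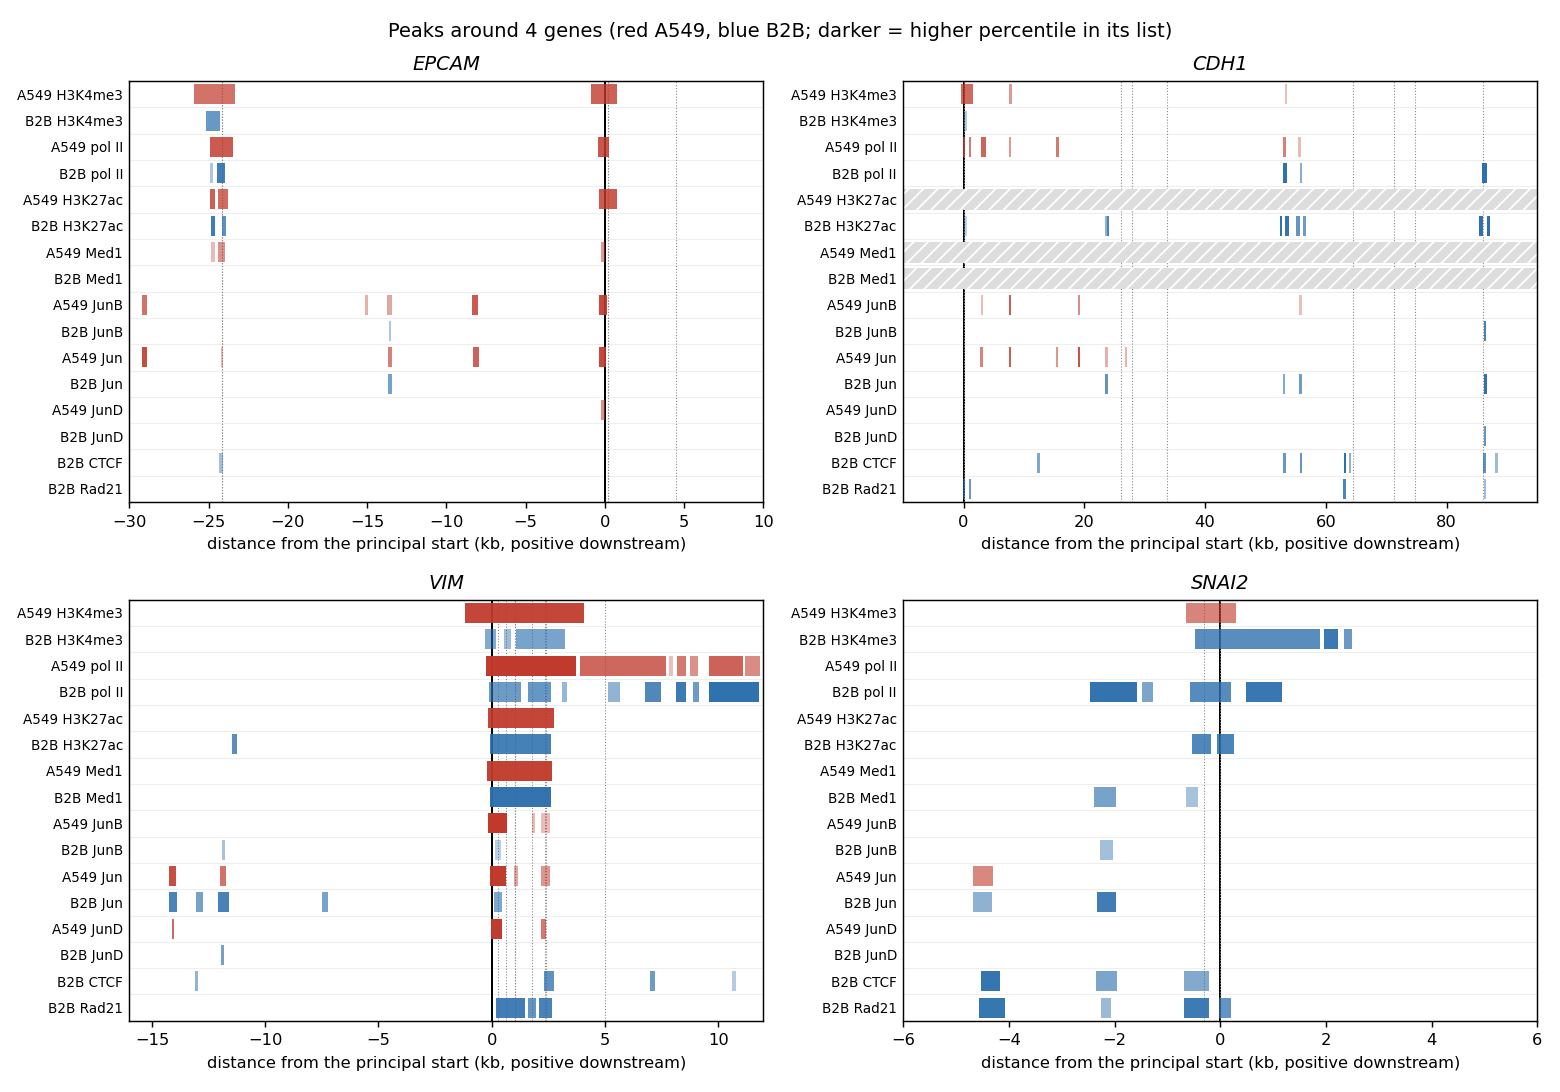
Peaks of every list around EPCAM, CDH1, VIM and SNAI2 by distance from the principal start (kb, solid line; dotted lines are other annotated starts), in red for A549 and blue for B2B, darker where the percentile in the list is higher; hatched rows are lists that end before the gene, and very narrow peaks are drawn at a minimum width. EPCAM has A549 peaks and no B2B peak at 0, CDH1 has a B2B cluster near 86.3 kb, VIM is covered in both lines, and SNAI2 has B2B peaks about 2.15 kb upstream that A549 lacks.

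Among the mesenchymal genes, VIM carried the strongest Jun-family region of all members, chr10:17228093-17228925, which overlaps a VIM exon with its summit 0.282 kb downstream of the start. In A549 JunB reached 53.4-fold (percentile 99.9), Jun 50.4-fold (98.1) and JunD 16.0-fold (98.5). In B2B JunB reached 3.20-fold (percentile 3.60) and Jun 8.02-fold (44.8), and JunD was not called. The summits held 188 and 176 reads for JunB and Jun in A549 and 117 and 153 reads in B2B, and the local background was 1.24 and 2.52 times the low level of the list in A549 but 18.4 and 15.6 times in B2B. The fold enrichments of the lines thus differed far more than the pileups did, and the part of the local background was not tested.

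The other marks at VIM were called in both lines and differed in how close their ranks were. H3K4me3 reached 42.1-fold in A549 (percentile 91.3) and 3.35-fold in B2B (48.5), with 183 and 167 reads at the summit. Med1 reached 18.6-fold in A549 and 17.5-fold in B2B, at percentiles 94.1 and 95.5, on peaks of 2904 and 2667 bp. H3K27ac reached 81.1-fold (91.3) and 8.69-fold (83.4), with 325 and 336 reads at the summit. Pol II reached 99.9-fold in A549 (99.1) and 5.23-fold in B2B (56.0) at about the same position 1.07 kb downstream of the start, with 280 and 253 reads at the summit and a local background of 1.1 and 28.4 times the low level. Med1, whose local background was 1.67 times the low level in A549 and 1.5 times in B2B, was the mark with the closest ranks in both lines. The region 11.9 kb upstream of the start, whose sequence is printed above, had Jun at 11-fold in A549 and at 17.4-fold in B2B, where JunB (4.76-fold) and JunD (5.54-fold) were called as well.

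FN1 carried the highest H3K4me3 peak of the members in A549, at 47.7-fold (percentile 97.2), and the highest B2B peak at FN1 was 5.04-fold (76.6). Pol II reached 40.3-fold (85.4) in A549 and 7.03-fold (76.3) in B2B. The pol II summit held 121 reads in A549 and 237 in B2B, on backgrounds of 1.23 and 19.6 times the low level. The median pileup of the pol II lists was 24 and 56 reads. Since the scale of the reads was not tested, they are not read as a direction between the lines. Med1 was called in B2B alone, with 3 peaks of 5.06-fold to 11.6-fold. The region chr2:215410867-215411286, in an intron 25 kb downstream of the principal start and 0.917 kb from another annotated start, was shared by the lines, with JunB at 13.1-fold and Jun at 17.6-fold in A549 and Jun at 31.4-fold and JunD at 9.04-fold in B2B. A second intronic element 2.34 kb downstream of the start was called in B2B alone, where Jun reached 10.6-fold, JunB 4.38-fold, Med1 5.69-fold and pol II 6.34-fold within about the same stretch. In A549 the Jun family near the FN1 start was a JunB peak of 6.05-fold, 0.141 kb upstream.

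CDH2 had H3K4me3 and pol II at its principal start (chr18:28177130) in both lines. H3K4me3 reached 26.8-fold (percentile 66.1) over 3614 bp in A549, and 3 B2B peaks reached 1.88-fold to 3.64-fold. Pol II reached 10.2-fold (62.7) in A549 and 2.42-fold to 4.31-fold in B2B, at percentiles of at most 39.3. The A549 pol II summit held 26 reads and those of B2B 50 to 98, on backgrounds of 1.0 and 6.48 to 21.4 times the low level. The highest H3K4me3 peak held 91 reads in A549 and 121 in B2B. The median pileup of the lists was 24 and 56 reads for pol II and 58 and 107 for H3K4me3. Since the scale of the reads was not tested, they are not read as a direction between the lines. H3K27ac was called in B2B at 3.76-fold and 4.74-fold, and the A549 list does not reach the gene. Of 12 Jun-family regions within 100 kb of a start 10 were called in B2B alone, 2 in A549 alone and none in both lines. All 3 Jun proteins were called in B2B at chr18:27921899-27922566, in an intron of a lncRNA beyond the 3′ end of CDH2, with Jun at 32.8-fold, and at chr18:28114481-28115538 in an intron, with Jun at 28.6-fold.

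The promoters of VIM and ZEB1, 2 genes whose Jun-family calls differed, are given as the 250 bases upstream of the RefSeq start. They are from RefSeq on GRCh38, in the direction of the gene, with any E-box or AP-1 motif in capitals, the E-box being CAGGTG, which on the opposite strand reads CACCTG.
VIM, chr10:17227991-17228240, plus strand: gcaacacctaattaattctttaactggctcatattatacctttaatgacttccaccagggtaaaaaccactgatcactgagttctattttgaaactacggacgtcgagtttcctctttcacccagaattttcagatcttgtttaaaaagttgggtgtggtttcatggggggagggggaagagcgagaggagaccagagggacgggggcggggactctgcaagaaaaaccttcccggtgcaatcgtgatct
ZEB1, chr10:31318167-31318416, plus strand: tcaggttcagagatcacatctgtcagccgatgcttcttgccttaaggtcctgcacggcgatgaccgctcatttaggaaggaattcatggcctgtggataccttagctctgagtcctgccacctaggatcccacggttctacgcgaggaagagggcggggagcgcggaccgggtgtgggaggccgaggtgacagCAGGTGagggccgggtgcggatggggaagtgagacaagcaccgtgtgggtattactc

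The RefSeq promoter table matched 5 of the 10 members, CDH2, VIM, FN1, ZEB1 and ZEB2. In windows of 300 bases (250 before to 50 after the start), 1 of these 5 held an E-box, ZEB1, against 20.6% of 27305 promoters. The AP-1 motif was in none of the 5 and in 4.92% of all promoters. The strongest Jun-family summit of VIM lay downstream of the printed window. The RefSeq start of ZEB1 (chr10:31318417) lies upstream of its principal start (chr10:31319216), so the printed ZEB1 window does not adjoin the principal start.

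Among the regulators, ZEB1 had pol II at its principal start (chr10:31319216) in A549 alone, at 36.7-fold (percentile 83.8). H3K4me3 ranked at percentile 88.2 in A549 and, at 3.14-fold, at percentile 43.9 in B2B, with 179 and 147 reads at the summit. JunB of 6.29-fold and 5.16-fold and Jun of 6.21-fold and 5.38-fold marked the start in A549 and not in B2B. H3K27ac was called in both lines, at 71.6-fold (87.9) and 4.71-fold (37.6), and Med1 at 8.02-fold (62.1) and 3.99-fold (4.54). Of the 7 targets profiled in both lines, 6 were thus absent from B2B at ZEB1 or ranked lower there, and JunD was called in neither line. The local background under the highest H3K4me3 peak was 1.44 times the low level in A549 and 18.6 times in B2B. It was 2.50 and 23.3 times for H3K27ac and 2.32 and 2.30 times for Med1. The part of this background in the lower B2B ranks was not tested. Of the 6 Jun-family regions within 100 kb 4 were called in A549 alone, among them an intronic region 34.5 kb downstream with Jun at 15.7-fold and JunB at 10.0-fold. The strongest was the shared region 76.1 kb upstream, printed above, with JunB at 11.7-fold and Jun at 14.4-fold in A549 and Jun at 6.93-fold in B2B.

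ZEB2, the paralogue of ZEB1, had its highest H3K4me3, pol II and H3K27ac signals in A549 2.62 to 3.06 kb downstream of the principal start (chr2:144520119), near other annotated starts. H3K4me3 reached 25.9-fold (percentile 64.9) there in A549, and at the principal start the B2B peak of 5.62-fold (81.9) was its highest. A Jun-family region over a ZEB2 exon, chr2:144517345-144517836, had JunB and Jun at 16.6-fold each in A549 and Jun at 6.12-fold in B2B. Med1 was called in B2B alone, at 4 peaks of 4.29-fold to 9.29-fold. ZEB2 had the most regions shared by the lines, 7 of 18, and the strongest of them, chr2:144357835-144358513 beyond the end of the gene, was called for all 3 Jun proteins in both lines. Jun reached 24.8-fold in A549 and 60.7-fold in B2B there, JunB 10.0-fold and 10.9-fold, and JunD 4.75-fold and 11.1-fold, and Med1 overlapped it in B2B and not in A549.

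SNAI1 has 1 annotated start, chr20:49982980, and the A549 lists of H3K27ac and pol II and both Med1 lists end before it. The main H3K4me3 peak spanned 3188 bp at 38.9-fold (percentile 86.3) in A549, and 431 bp at 1.99-fold (8.72) in B2B, with 172 and 107 reads at the summit. The local background was 1.42 times the low level of the list in A549 and 21.5 times in B2B. Pol II in B2B reached 5.28-fold (57.6) with 250 reads at the summit. A JunD peak of 4.06-fold (percentile 14) in A549 was the single Jun-family peak within 3 kb of the start. SNAI1 had the most Jun-family regions within 100 kb, 22, of which 11 were called in A549 alone, 6 in both lines and 5 in B2B alone.

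SNAI2 (Slug) was the member at which the calls favoured B2B. Its H3K4me3 covered 0.940 kb in A549 and 2.79 kb in B2B, and the A549 peak at the start had 9.96-fold (percentile 45.9). The B2B peak at the start had 4.57-fold (percentile 70.5), and a peak of 252 bp 2.11 kb inside the gene had 7.38-fold (90.4) with 32 reads, so the folds were higher in A549 and the ranks in B2B. Pol II in B2B formed 4 peaks of 4.64-fold to 15.2-fold, 2 of them at percentiles 91.9 and 95.4, and H3K27ac formed peaks of 8.01-fold and 7.63-fold. A549 had none of these, although its lists cover the gene. The region chr8:48923409-48923762, between genes and 2.15 kb upstream of the principal start, had Jun at 21.1-fold (percentile 86.3) and JunB at 4.91-fold (19.5) in B2B, together with Med1 at 6.28-fold, pol II at 15.2-fold and CTCF at 8.19-fold. The nearest Jun peak in A549 lay 4.47 kb upstream of the start in a region that was called in both lines, at 8.34-fold in A549 and 6.82-fold in B2B.

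TWIST1 had H3K4me3 in both lines, at 32.1-fold (percentile 74.4) in A549 and at 3.39-fold (49.2) in B2B. Pol II was called in A549 alone, at 10.2-fold (62.7), with 26 reads at the summit. Med1 was called in B2B alone, at 3 peaks of 4.02-fold to 6.06-fold, and H3K27ac in both lines at 32.8-fold (71.8) and 3.16-fold (11.7). The H3K27ac summit held 73 reads in A549 and 110 in B2B, on backgrounds of 1.01 and 23.6 times the low level. The highest H3K4me3 peak held 109 and 112 reads. The median pileup of the lists was 37 and 62 reads for H3K27ac and 58 and 107 for H3K4me3. Since the scale of the reads was not tested, they are not read as a direction between the lines. TWIST1 had the fewest Jun-family regions, 3, among them a weak Jun peak in B2B 3.0 kb downstream of the start at 4.02-fold (percentile 2.84). The strongest one, in an intron 56.5 kb downstream of the principal start, was shared at 7.01-fold in A549 and 7.39-fold in B2B.

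Over the 10 genes, 117 Jun-family regions lay within 100 kb of a start site. Of these 28 (23.9%) were called in both lines, 42 (35.9%) in A549 alone and 47 (40.2%) in B2B alone, and over the genome these shares were 26.5%, 34.1% and 39.4% of 72011 regions. A member had a median of 11.5 regions (3 to 22), against 7 per protein-coding gene (quartiles 4 and 11). The span searched differed between genes, since the farthest start lay 211 kb from the principal one at CDH2 and 124 kb at ZEB2, while SNAI1 has 1 start. More regions in A549 alone than in B2B alone were found at 5 members, CDH1, EPCAM, VIM, ZEB1 and SNAI1, against 50.7% of protein-coding genes. The reverse was found at the other 5, CDH2, FN1, ZEB2, SNAI2 and TWIST1, against 33.2%. All 3 Jun proteins were called together in 10 regions in A549 and in 5 regions in B2B. The share of such regions over the genome was not counted, and the JunB list was longer in A549 (28068 peaks) than in B2B (8563). These counts are therefore not read as a trait of the 10 genes.

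**Figure D4:**
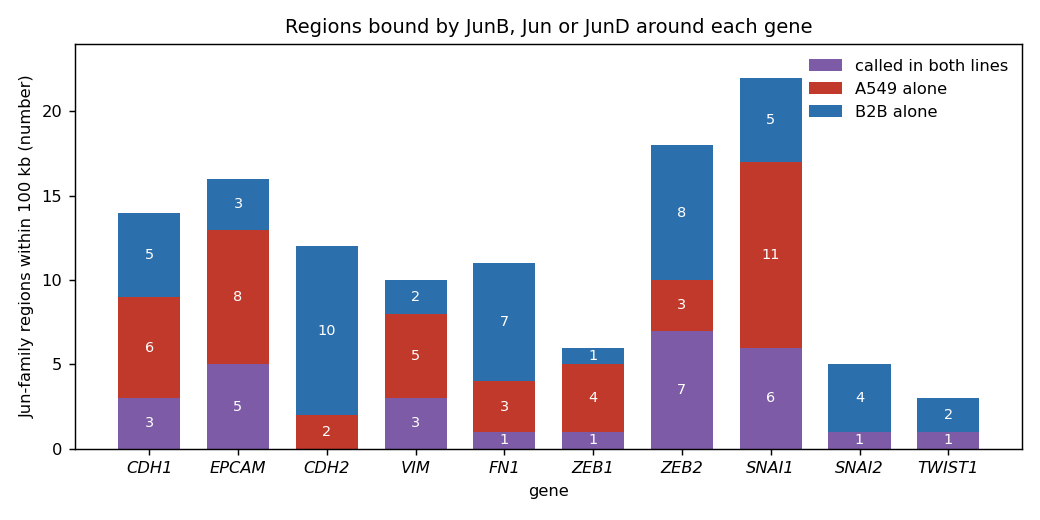
Number of regions bound by JunB, Jun or JunD within 100 kb of a start site of each gene, split into regions called in both lines, in A549 alone and in B2B alone. SNAI1 has the most regions (22) and TWIST1 the fewest (3), and CDH2 has 10 regions in B2B alone and none in both lines.

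The AP-1 motif within 50 bp of the summit was present in 58.1% of the 43 JunB peaks within 100 kb in A549 (exact Clopper-Pearson 95% interval 42.1 to 73.0), against 46.2% of the whole list. For Jun it was present in 42.4% of 59 peaks in A549 (29.6 to 55.9) and in 38 of 76 peaks in B2B (38.3% to 61.7%), against 42.0% and 39.8% of the lists. JunB in B2B had it in 57.1% of 14 peaks (28.9 to 82.3) against 53.6%. JunD had it in 53.8% of 13 peaks in A549 (25.1 to 80.8) and in 85.7% of 7 peaks in B2B (42.1 to 99.6), against 34.2% and 42.8%. In all 6 lists the interval of the members held the share of the whole list, and these intervals cover counting error only.

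Of the regions of A549 alone 12 lay within 3 kb of a member's start, of those of B2B alone 6 and of the shared ones 5. How many regions of each class lie near a start over the genome was not counted. Calls near starts in A549 alone also outnumbered those in B2B alone over all protein-coding genes. JunB was at 26.7% of genes versus 0.953%, Jun at 19.3% versus 6.50%, JunD at 16.2% versus 1.57%. The larger count of A549 is thus not read as a trait of the members. Around the 7 genes that both H3K27ac lists cover, H3K27ac of A549 overlapped 13 of 23 regions of A549 alone, and H3K27ac of B2B overlapped 11 of the same 23. Of 27 regions of B2B alone, H3K27ac of B2B overlapped 2 and that of A549 none. At the 19 shared regions each line had it at 3. Over all Jun-family regions of the genome that both lists reach, H3K27ac of A549 and of B2B overlapped 34.4% and 24.1% of regions of A549 alone, 1.66% and 7.19% of those of B2B alone and 22.3% and 19.2% of the shared ones.

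Other genes of the programme were taken from textbook lists of 24 epithelial and 30 mesenchymal genes, all of which matched GENCODE. Of the epithelial genes 18 had H3K4me3 within 3 kb of a start in A549 and 9 in B2B, and 9 had it in A549 alone and none in B2B alone. The shares over all protein-coding genes were 73.7% in A549, 62.7% in B2B, 12.9% in A549 alone and 1.87% in B2B alone, so the A549 count was near the background. The 9 were CLDN3, PKP3, ESRP1, OVOL1, OVOL2, ELF3, CRB3, CDS1 and LAMB3, which include a claudin of tight junctions (CLDN3), a splicing regulator of epithelial isoforms (ESRP1) and transcription factors of epithelial identity (OVOL1, OVOL2, ELF3). At these 9 the highest H3K4me3 peak in A549 ran from 4.69-fold at LAMB3 to 38.2-fold at CDS1, with 22.5-fold at ESRP1 and 25.2-fold at OVOL2. The 6 epithelial genes with H3K4me3 in neither line were KRT19, CLDN4, CLDN7, GRHL2, ST14 and RAB25, among them further claudins. The median cover per epithelial gene was 2.05 kb in A549 and 0 kb in B2B, against 1.98 and 0.975 kb over all protein-coding genes.

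Of the mesenchymal genes 22 had H3K4me3 in A549 and 21 in B2B, 6 in A549 alone and 5 in B2B alone. Against the same shares of all genes, the A549 count was near the background, and the 5 in B2B alone stand beside a share of 1.87%. The 5 were SPARC, COL3A1, MMP14, THY1 and PDGFRB, which encode matrix proteins (SPARC, COL3A1), a matrix protease (MMP14) and surface proteins of fibroblasts and mural cells (THY1, PDGFRB). In B2B the highest H3K4me3 peak at these 5 ran from 2.28-fold at THY1 to 13.9-fold at SPARC. COL1A2, TAGLN and FAP had H3K4me3 in neither line. The 6 in A549 alone were SNAI3, PRRX1, LEF1, COL6A1, MMP2 and S100A4. The median cover was 1.61 kb in A549 and 1.37 kb in B2B.

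Jun was called in A549 alone at 7 epithelial genes and in B2B alone at 1, ELF3, whereas at mesenchymal genes it was called in A549 alone at 1, ITGA5, and in B2B alone at 9. The 9 were SPARC, COL1A1, COL1A2, COL3A1, COL5A1, LOX, FAP, WNT5A and PDGFRB, of which 4 are fibrillar collagens and LOX cross-links them. Jun in B2B ran from 3.86-fold at COL1A1 to 20.8-fold at WNT5A, with 5.08-fold at FAP, 5.30-fold at LOX and 20.1-fold at SPARC. In A549 JunB was called at COL1A1 (5.25-fold) and SPARC (5.90-fold), so these genes had a Jun-family peak in both lines. Over all protein-coding genes the Jun shares were 19.3% in A549 alone and 6.50% in B2B alone. The lean of the epithelial genes to A549 in Jun calls thus has the direction of all genes. No test of the difference between the lists was run. JunB was called at 10 epithelial and 11 mesenchymal genes in A549 alone (26.7% of all genes) and at none in B2B alone (0.953%), where its list was shorter (8563 peaks, against 28068 in A549). JunD was called at 6 epithelial genes in A549 (17.8% of all genes) and 3 in B2B (3.21%), and at 4 and 3 mesenchymal genes. The Jun lists were closer in length, with 35602 peaks in A549 and 45047 in B2B.

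**Figure D5:**
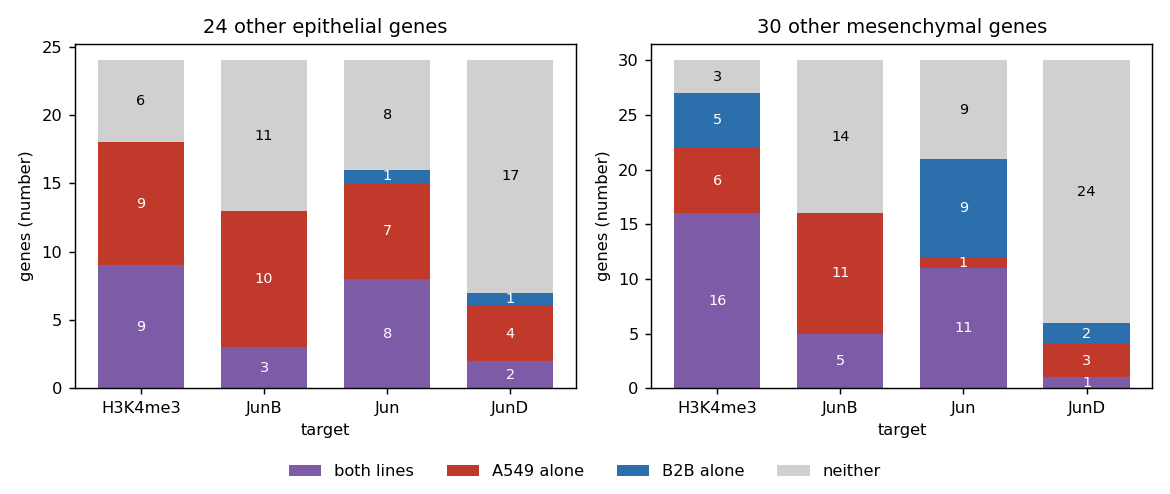
Number of other epithelial (left) and mesenchymal (right) genes with a peak within 3 kb of a start site in both lines, in A549 alone, in B2B alone or in neither, for H3K4me3 and the 3 Jun proteins. Of 24 epithelial genes 9 have H3K4me3 in A549 alone and none in B2B alone, and of 30 mesenchymal genes 9 have Jun in B2B alone and 1 in A549 alone.

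The study describes A549 as derived from lung adenocarcinoma and B2B as a bronchial epithelial line. Of the defining epithelial genes, CDH1 and EPCAM both had H3K4me3 within 3 kb of a start in B2B, at CDH1 over 260 bp and at EPCAM away from the principal start. The mesenchymal genes CDH2, VIM and FN1 had H3K4me3 and pol II in both lines. The peak lists hold no RNA or protein level, so whether any of these genes was expressed was not tested.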

How the data were processed

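ChIP-seq of A549 and B2B cells was analysed from peak lists. Per the study's methods the authors mapped the reads to hg38 (Bowtie2 2.4.4), dropped duplicates, joined both replicates of a group, then scaled the result to CPM across the cells (SAMtools 1.13) and ran MACS2 2.2.7.1 on it. The control and options of the caller are not given in the sources used here. The deposited values are the fold enrichment (a ratio), −log10 of the p-value and of the q-value, and a score of the authors per peak. The lowest −log10 q was 2.00.

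The 10 genes and the gene lists were chosen with earlier results of these data known. All members are named. The named regions are the strongest Jun-family region of each member by summed fold enrichment, the strongest in each class, and regions with all 3 Jun proteins. Jun-family peaks of the 6 lists were merged into regions (overlap of 1 bp). Start sites came from GENCODE 44. Pileup and background were solved from fold enrichment and p-value, with the p-value matched within 1% for 95.4% to 100% of the peaks of a list. Interval counts and this solution were tested on simulated data. Python 3.11.15, NumPy 2.4.6, SciPy 1.17.1 and Matplotlib 3.10.9 were used. Input libraries were not analysed here, and no library depth is given by the lists. Alternatives changed distance, start sites, q-value, list length, the joining of peaks and the motif window.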

Additional observations from a re-analysis of the deposited data

How the results depend on the processing

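Over 29 counts and shares, 158 alternatives were run, and in 148 the value stayed within 1.5 times the reported count or within the interval of the reported share. The other 10 were as follows. Within 1 kb of a start, members with JunB in B2B fell to 2 (CDH1 and VIM) and members with JunD in B2B to 1 (CDH1). JunD in B2B was at 0 members with the 5′ end of the gene record, and likewise with the principal start, an alternative chosen after the data were examined, since its peaks at CDH1 and FN1 lie at other starts. Jun-family regions in both lines numbered 60 within 200 kb, and regions of B2B alone numbered 30 within 50 kb and 80 within 200 kb, where the window itself changes the count. The share of JunB peaks with the AP-1 motif was 34.9% in A549 within 25 bp and 85.7% in B2B within 100 bp, and that of Jun peaks in B2B was 36.8% within 25 bp. With lists of equal length, regions of both lines, A549 alone and B2B alone numbered 24, 36 and 39. With the principal start alone, H3K4me3 was called at 9 members in B2B, without EPCAM, and pol II at 6, without CDH1 and EPCAM. No replicate could be left out, because the lists are pooled. No paired analysis was possible because each list pools the 2 replicates of its group. Lists that end early limit CDH1, CDH2 and SNAI1, and counts of reads per library are unknown.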

Other observations

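The miR-200 family represses ZEB1 and ZEB2 and is encoded at a pair of loci, which were looked at after the data had been examined. Peaks within 3 kb of the mature sequences were counted. The sequences are from RefSeq on GRCh38, with the seed (bases 2 to 8) in capitals, and they fall into seed groups, AAUACUG and AACACUG, each of which is represented at both loci.
hsa-miR-200c-3p, chr12:6963742-6963764: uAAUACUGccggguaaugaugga
hsa-miR-141-3p, chr12:6964155-6964176: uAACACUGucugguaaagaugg
hsa-miR-200b-3p, chr1:1167160-1167181: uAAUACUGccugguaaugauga
hsa-miR-200a-3p, chr1:1167916-1167937: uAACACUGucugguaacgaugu
hsa-miR-429, chr1:1169055-1169076: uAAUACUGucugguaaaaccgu

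At the chr12 locus of miR-200c and miR-141, A549 had H3K4me3 at 3.60-fold, 2 pol II peaks of up to 11.3-fold and Med1 at 3.37-fold, and B2B had none of these. H3K27ac was called in both lines, with 3 peaks of up to 47.3-fold in A549 and 4 peaks of up to 4.59-fold in B2B. No Jun-family peak was called there in either line. In B2B a CTCF peak of 16.4-fold and a Rad21 peak of 17.7-fold overlapped downstream of the miRNAs. At the chr1 locus of miR-200b, miR-200a and miR-429, 0 peaks were called within 3 kb of the mature sequences in all 16 lists. A start of a primary transcript outside this window was not searched at either locus.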
